A study of Mus musculus with 20 samples.

Results

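The genes that govern the passage from G1 into S phase were examined in insertional mutagenesis (IM) induced murine T lineage acute lymphoblastic leukemia (T-ALL). They are the inhibitors *Cdkn2a*, *Cdkn2b*, *Cdkn2c*, *Cdkn2d*, *Cdkn1a* and *Cdkn1b*, the D cyclins *Ccnd1*, *Ccnd2* and *Ccnd3*, and the kinase *Cdk6*. These 10 genes were selected by symbol from the 39017 Ensembl genes of an RNA sequencing table, and all 10 were present. The leukemias arose in C57Bl/6 x 129Sv/Jae F1 mice given the retrovirus MOL4070LTR as pups, which mutates the genome by inserting into it, and were passed into irradiated wild-type recipients of the same cross. RNA came from the bone marrow of the recipients. The 9 leukemias carry the names JW81, JW14, 8633, 5C, 78A, 73M, 73A, 2M and 20M. Each had 2 libraries, whose column names carry the letters VEH in one and DEX in the other. Neither the labels nor the text of the study explains these letters, so they are used here only as names of columns. A further leukemia, 4638, was left out of the values and tests given here and entered only as an alternative. Whether both libraries of a leukemia came from separate recipients is not stated, so each p-value measures only the spread between these libraries.

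D cyclins are made in response to growth signals and bind CDK4 or CDK6. The resulting kinases phosphorylate the retinoblastoma protein, which then releases E2F factors that drive genes for DNA replication. The INK4 inhibitors, encoded by *Cdkn2a* to *Cdkn2d*, bind CDK4 and CDK6 themselves, whereas the CIP/KIP inhibitors p21 (*Cdkn1a*) and p27 (*Cdkn1b*) act mainly on CDK2 complexes. *Cdkn2a* encodes both p16Ink4a and p19Arf from separate first exons, and p19Arf protects p53 from MDM2. Cyclin D3 and CDK6 serve the expansion of thymocytes, and the *Cdkn2a* locus is often lost in T-ALL.

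The upstream sequence of *Cdkn2a*, *Cdkn2b* and *Ccnd3* is shown because *Cdkn2a* and its neighbor *Cdkn2b* were both lowest in 2M and highest in 8633, and because *Ccnd3* differed between the DEX and VEH columns. Each window holds the 250 bases before a RefSeq transcript start (GRCm38.p6), and 8 of the 10 genes had an entry, with 12 windows in all. *Ccnd1* and *Ccnd2* had none. The windows of *Cdkn2a* lie on chromosome 4, minus strand, at 89282193 to 89282442 for the start nearer the shared exons, that of p16Ink4a, and at 89294620 to 89294869 for the start of p19Arf. The window of *Cdkn2b* is on the same strand at 89311033 to 89311282. For *Ccnd3* they lie on chromosome 17, plus strand, at 47504801 to 47505050 and at 47593217 to 47593466. Sequences run 5′ to 3′ on the strand of the gene, and capitals mark a match to a searched motif.
*Cdkn2a*, p16Ink4a start: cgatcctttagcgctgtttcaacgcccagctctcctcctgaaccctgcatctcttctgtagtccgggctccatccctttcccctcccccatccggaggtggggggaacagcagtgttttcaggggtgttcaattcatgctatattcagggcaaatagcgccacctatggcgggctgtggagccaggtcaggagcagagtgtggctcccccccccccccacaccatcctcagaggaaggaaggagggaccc
*Cdkn2a*, p19Arf start: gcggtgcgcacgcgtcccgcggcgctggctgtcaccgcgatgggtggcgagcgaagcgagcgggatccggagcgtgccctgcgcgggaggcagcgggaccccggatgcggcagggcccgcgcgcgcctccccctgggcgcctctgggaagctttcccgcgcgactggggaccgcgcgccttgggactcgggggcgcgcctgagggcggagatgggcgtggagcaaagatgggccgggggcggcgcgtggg
*Cdkn2b*: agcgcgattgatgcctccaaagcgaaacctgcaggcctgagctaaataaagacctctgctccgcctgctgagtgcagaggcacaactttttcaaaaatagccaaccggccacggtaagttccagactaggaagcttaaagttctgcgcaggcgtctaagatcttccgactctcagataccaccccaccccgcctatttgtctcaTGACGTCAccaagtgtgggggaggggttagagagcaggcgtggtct
*Ccnd3*, upstream start: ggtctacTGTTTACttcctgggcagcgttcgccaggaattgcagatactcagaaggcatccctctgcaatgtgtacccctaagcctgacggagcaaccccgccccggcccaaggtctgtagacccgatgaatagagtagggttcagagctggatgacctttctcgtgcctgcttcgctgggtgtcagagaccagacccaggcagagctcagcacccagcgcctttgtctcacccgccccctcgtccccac
*Ccnd3*, downstream start: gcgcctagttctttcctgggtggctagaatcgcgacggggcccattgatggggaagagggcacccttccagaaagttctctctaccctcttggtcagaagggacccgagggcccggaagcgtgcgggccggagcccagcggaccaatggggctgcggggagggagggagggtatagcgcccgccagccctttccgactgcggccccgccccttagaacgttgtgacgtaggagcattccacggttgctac
Searched on both strands were TGTTTAC (bound by FOXO factors), CACGTG (the E-box of MYC), TGACGTCA (the CRE) and AGAACA (a half-site of the glucocorticoid receptor). Of 32851 mouse promoter windows of this length, 3.17% held the first, 6.02% the E-box, 1.55% the CRE and 16.1% the half-site. The window of *Cdkn2b* held the CRE, 46 bases before the start, and the upstream window of *Ccnd3* held TGTTTAC near the 5′ end of the window. The second window of *Cdkn2c* held the half-site, and that of *Cdk6* held the half-site and the E-box. The windows of *Cdkn2a*, *Cdkn2d*, *Cdkn1a* and *Cdkn1b* held none of these letters. No binding was measured, and a match is a description of the sequence.

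Values are FPKM, calculated from the deposited expected counts and the exon length of each gene, so that levels can be compared between genes. The 18 libraries held 8226528 to 201222288 counts, with a median of 24451898, and the largest was the VEH library of 73M. Genes for ribosomal RNA, the mitochondrial ones left out, held 21.6 to 64.0 counts per M counts in 5 libraries (those named DEX of JW14, JW81, 20M and 73M, and that named VEH of 5C) and at most 0.00497 in the other 13. T lineage markers were present in all leukemias, with the FPKM of 8 genes (*Cd3d*, *Cd3e*, *Cd3g*, *Cd2*, *Cd5*, *Thy1*, *Lck* and *Cd247*) summing to 340 to 1044 in VEH libraries. Those of 11 myeloid genes also reached high sums, from 55.8 in JW14 to 4917 in 73A, and the erythroid sum of 8 genes reached 564 in 73M. The myeloid sum of 8633, at 431, was next above that of JW14, and 78A followed at 1214. The part of the myeloid sum in the levels of JW14 and 8633 given below was not tested. In bulk RNA, fewer cells of a type and less RNA per cell cannot be told apart.

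**Figure D1:**
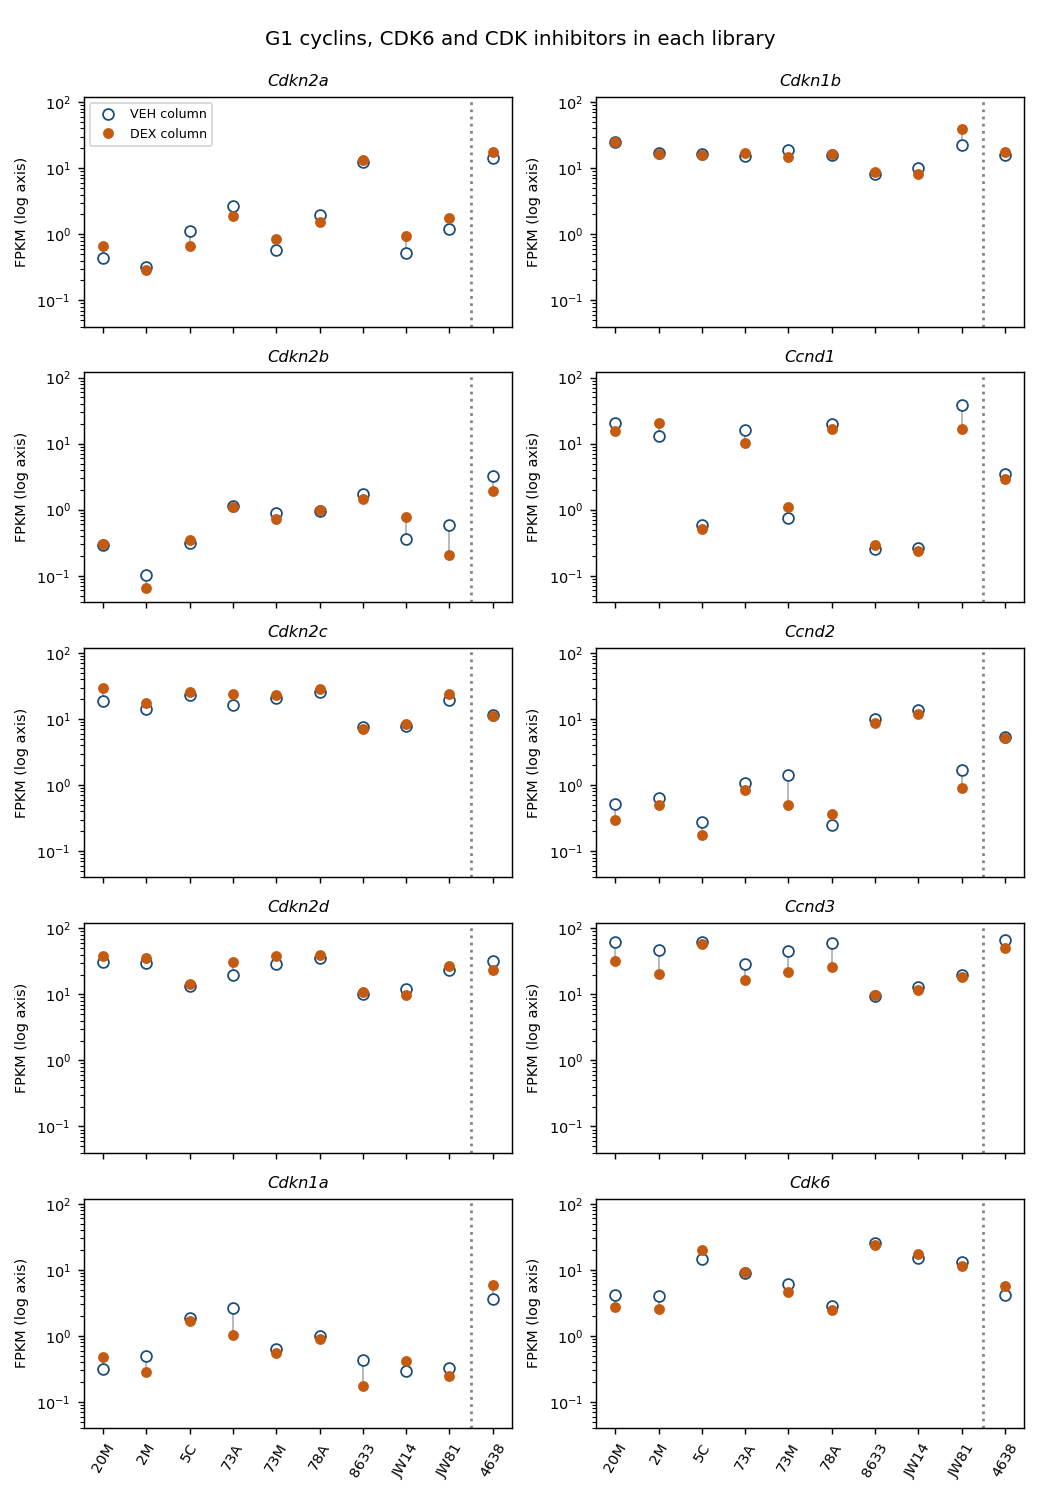
FPKM of the 10 genes in each library, on a logarithmic axis, for 9 leukemias and, right of the dotted line, for 4638. Open circles are VEH columns, filled circles DEX columns, and a grey line joins the libraries of a leukemia. *Cdkn2a* stands high in 8633 and 4638, *Ccnd1* is either above 10 FPKM or near 1 FPKM and below in the 9 leukemias, and *Ccnd2* is high in 8633 and JW14.

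A gene was tested if its mean over the 18 libraries was at least 1 FPKM, which 8 of the 10 genes reached. *Cdkn2b*, with a mean of 0.684 FPKM, and *Cdkn1a*, with 0.764 FPKM, did not. *Ccnd2* reached the limit only through 8633 and JW14 and *Ccnd1* only through 5 leukemias, and *Cdkn2a* was also under 1 FPKM in 5 of 9. As these 3 entered the test through the leukemias in which they are high, their differences among leukemias are not counted. The other 5 genes, each above 1 FPKM in every leukemia, differed among the 9 leukemias by more than between the libraries of a leukemia (edgeR quasi-likelihood F test, Benjamini-Hochberg adjusted p from 3.40e-07 for *Cdk6* to 0.000185 for *Ccnd3*). Of the 11339 genes tested, 82.5% differed in this way, so little is read from the count. With no filter, *Cdkn2b* and *Cdkn1a* also differed among leukemias (adjusted p = 2.45e-06 and 3.37e-07), against 47.3% of 27912 genes.

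*Cdkn2a* (ENSMUSG00000044303, chromosome 4, 89274471 to 89294653, minus strand) was low in most of the leukemias and high in 8633. Its level, the mean of both libraries, was lowest in 2M at 0.306 FPKM, had a median of 0.895 FPKM in 5C and was highest in 8633 at 12.9 FPKM, a range of 42.1-fold. The libraries of 8633 were at 12.4 FPKM (VEH) and 13.4 FPKM (DEX), on 431 and 357 counts. The next leukemia in the order, 73A, was at 2.71 and 1.87 FPKM, and the libraries of 8633 did not overlap with those of any other of the 9. Those of 4638, at 14.2 and 17.8 FPKM, were higher still. In 2M, 0.323 FPKM (VEH) and 0.288 FPKM (DEX) rested on 8 and 11 counts, above the floor of 3 counts, which corresponded to 0.121 and 0.0785 FPKM. Among neighbors in the order, 5 of 8 pairs had overlapping libraries, among them 20M, 73M, JW14 and 5C. 2M lay below 20M without overlap. Gene counts do not divide p16Ink4a from p19Arf, so which of them made up the level in 8633 was not resolved.

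*Cdkn2b* (ENSMUSG00000073802, chromosome 4, 89306299 to 89311039, minus strand), which encodes p15Ink4b and lies next to *Cdkn2a*, was low throughout. It was lowest in 2M as well, at 0.102 FPKM (VEH) and 0.0662 FPKM (DEX), with 3 counts in each library, which is the floor. The median was 0.575 FPKM in JW14, and the highest level was again that of 8633, at 1.70 and 1.45 FPKM on 70 and 46 counts. 8633 lay above 73A, at 1.14 and 1.08 FPKM, without overlap. The libraries of a leukemia could differ widely at these counts, as in JW81 with 0.589 FPKM on 21 counts and 0.208 FPKM on 6.

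The genes around this locus were measured in all leukemias. Within 1 Mb, 5 other genes had a mean of at least 1 FPKM, namely *Mtap*, *Klhl9*, *Focad*, *Mrpl48-ps* and *Gm26525*. *Mtap*, which encodes an enzyme of methionine salvage, was at 9.63 FPKM in 2M against a mean of 14.2 ± 4.00 FPKM (SD, n = 9), with its lowest level of 9.51 FPKM in 20M. *Klhl9*, an adaptor of a ubiquitin ligase, was at 32.9 FPKM in 2M against 32.0 ± 4.68 FPKM (SD, n = 9). In 8633 *Mtap* was at 19.7 FPKM, next to its highest level in 5C (also 19.7 FPKM), so 2M and 8633 lay near the ends of its range. *Mrpl48-ps* was at 3.88 FPKM in 2M, near its lowest level of 3.72 FPKM in 20M, and at 4.24 FPKM in 8633, also under its mean of 6.24 FPKM. *Klhl9* (27.5 FPKM) and *Gm26525* (0.581 FPKM, against 0.754 FPKM in 2M) were likewise under their means in 8633. *Focad* was at 4.89 FPKM in 2M and 5.60 FPKM in 8633. Copy number was not examined here.

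*Cdkn2c* and *Cdkn2d*, encoding p18Ink4c and p19Ink4d, were the abundant INK4 transcripts. *Cdkn2c* (ENSMUSG00000028551, chromosome 4, 109660876 to 109667189) was at 18.9 ± 7.12 FPKM (SD, n = 9), with 7.22 FPKM in 8633, 8.13 FPKM in JW14 and 15.7 to 27.1 FPKM in the other 7. The 2 low leukemias did not overlap with the rest. *Cdkn2d* (ENSMUSG00000096472, chromosome 9, 21288410 to 21291407) was at 25.0 ± 10.7 FPKM (SD, n = 9), with 10.6 FPKM in 8633, 11.1 FPKM in JW14 and 13.8 FPKM in 5C. From JW81, at 25.0 FPKM, up to 78A, at 37.8 FPKM, each neighbor in the order overlapped with the next. For *Cdkn2d*, 8633 (10.3 and 10.8 FPKM) overlapped with JW14 (12.2 and 9.96 FPKM). 8633 thus had the highest *Cdkn2a* and *Cdkn2b* and the lowest *Cdkn2c* of the 9, and low *Cdkn2d* together with JW14.

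Of the CIP/KIP inhibitors, *Cdkn1b* was abundant and *Cdkn1a* was not. *Cdkn1b* (ENSMUSG00000003031, chromosome 6, 134920401 to 134925513) was at 17.4 ± 6.995 FPKM (SD, n = 9). The lowest levels were those of 8633, at 8.56 FPKM, and JW14, at 9.24 FPKM, and 5 leukemias lay within 16.1 to 17.0 FPKM with overlapping libraries. 20M was at 25.1 FPKM and JW81 at 30.9 FPKM. The level of JW81 was the mean of unlike libraries, with 22.6 FPKM (VEH) and 39.2 FPKM (DEX). *Cdkn1a* (ENSMUSG00000023067, chromosome 17, 29090976 to 29100727), which p53 induces, had its median at 0.399 FPKM in 20M, its lowest level of 0.287 FPKM in JW81 and its highest of 1.85 FPKM in 73A. 5C, at 1.75 FPKM, overlapped with 73A, and both lay above 78A, at 0.953 FPKM. *Trp53*, encoding p53, was at 13.6 to 20.5 FPKM over the leukemias and *Mdm2* at 11.6 to 19.2 FPKM.

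*Ccnd3* was the most abundant D cyclin transcript in 14 of 18 libraries. *Ccnd3* (ENSMUSG00000034165, chromosome 17, 47505051 to 47599691) was at 31.3 ± 16.8 FPKM (SD, n = 9), from 9.64 FPKM in 8633 and 12.4 FPKM in JW14 to 47.3 FPKM in 20M and 59.7 FPKM in 5C. 8633, JW14 and the remaining leukemias were apart, while from JW81 upward each neighbor overlapped. *Ccnd1* (ENSMUSG00000070348, chromosome 7, 144929931 to 144939925), normally silent in lymphoid cells, was at 0.250 FPKM in JW14, 0.275 FPKM in 8633, 0.542 FPKM in 5C and 0.921 FPKM in 73M. In the other 5 leukemias it was at 13.0 FPKM (73A), 16.7 FPKM (2M), 18.0 FPKM (20M), 18.5 FPKM (78A) and 27.5 FPKM (JW81). No library lay between 1.09 FPKM, the DEX library of 73M, and 10.2 FPKM, the DEX library of 73A. *Ccnd2* (ENSMUSG00000000184, chromosome 6, 127125162 to 127152193) was at 9.45 FPKM in 8633 and 12.8 FPKM in JW14, and between 0.224 FPKM in 5C and 1.30 FPKM in JW81 elsewhere. The step from JW81 to 8633 was 7.26-fold, and the libraries did not overlap.

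**Figure D2:**
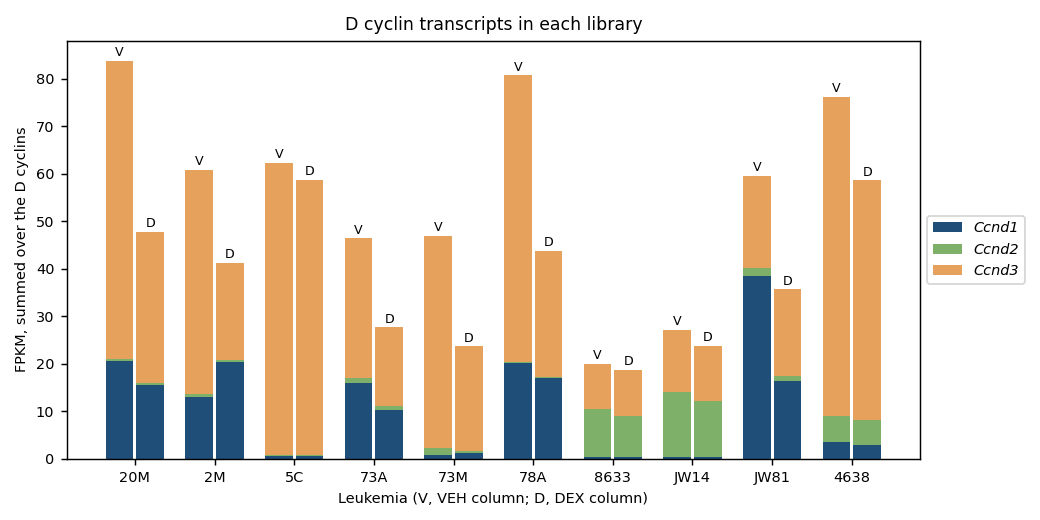
Stacked FPKM of the 3 D cyclins in each library, with V for the VEH and D for the DEX column. *Ccnd3* is the largest part of the bar in 14 of the 18 libraries of the 9 leukemias, *Ccnd2* about the same as *Ccnd3* in 8633 and JW14, and *Ccnd1* 64.6% in the VEH library of JW81.

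As a share of the summed D cyclin FPKM, *Ccnd3* had a median of 61.9% over the 18 libraries and ranged from 32.6% to 98.8%. The leukemias fell into 3 kinds of mixture. In 5C and 73M, *Ccnd3* made up 93.3% to 98.8%. In 20M, 2M, 73A, 78A and JW81, *Ccnd1* made up 21.4% to 64.6%, with its highest share in the VEH library of JW81. In the DEX library of 2M, *Ccnd1* and *Ccnd3* were level, at 49.4% each. In 8633 and JW14, *Ccnd2* made up 46.7% to 50.8% and *Ccnd3* nearly all of the rest. These leukemias also had the smallest sums, 19.4 FPKM in 8633 and 25.5 FPKM in JW14, against 35.3 to 65.8 FPKM in the other 7.

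*Cdk6* (ENSMUSG00000040274, chromosome 5, 3341485 to 3531008) was at 10.4 ± 7.68 FPKM (SD, n = 9). Its level was lowest in 78A at 2.65 FPKM, followed by 2M at 3.24 FPKM and 20M at 3.50 FPKM, whose libraries overlapped. It was highest in 8633, with 25.4 FPKM (VEH) and 24.2 FPKM (DEX), above 5C at 17.1 FPKM without overlap. *Cdk4*, the partner kinase, varied less and was more abundant, with 50.9 FPKM in 73M to 105 FPKM in JW14. Across the 9 leukemias, levels of *Cdk6* and *Cdkn2d* on the log2(FPKM + 1) scale ran in opposite order (r = −0.93, Spearman's rho = −0.92, and r = −0.91 without 8633 and JW14). This pair was among 45 pairs of the 10 genes, and the points share libraries and their depth. *Ccnd2* and *Ccnd3* also ran in opposite order among the 7 leukemias other than 8633 and JW14 (r = −0.94). That of *Ccnd2* with *Cdkn2c* was −0.39 among the same 7. These values are descriptions of 9 or fewer leukemias.

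The DEX columns were then compared with the VEH columns within leukemias. Of the 8 genes tested, *Ccnd3* was lower and *Cdkn2c* higher in the DEX columns, and the other 6 did not pass the test (edgeR quasi-likelihood test with leukemia as a block, adjusted p under 0.05). Of all 11339 genes, 13.0% passed, with 6.22% higher and 6.79% lower in the DEX columns. With no filter the share was 6.40%, and *Ccnd2*, *Ccnd3* and *Cdkn2c* passed of the 10 genes. With DESeq2 it was 19.1%, and *Ccnd2*, *Ccnd3*, *Cdkn2c* and *Cdkn2d* passed of the 8.

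*Ccnd3* fell by 0.57 on the log2 scale (SE 0.15, edgeR adjusted p = 0.0314). The fall was uneven. In 20M it went from 62.8 FPKM (VEH) to 31.8 FPKM (DEX), in 2M from 47.2 to 20.3 FPKM, in 73A from 29.4 to 16.6 FPKM, in 73M from 44.7 to 22.1 FPKM and in 78A from 60.3 to 26.5 FPKM. The DEX level was thus 0.431 to 0.567 times the VEH level in these 5. In 5C it was 61.5 and 58.0 FPKM, in 8633 9.59 and 9.69 FPKM, in JW14 13.2 and 11.7 FPKM, and in JW81 19.4 and 18.3 FPKM, or 0.890 to 1.01 times the VEH level in these 4. The call was lost when any one of the 5 with the lower ratios was left out (log2 fold change −0.49 to −0.55, adjusted p from 0.0573 without 78A to 0.0777 without 20M), and with the ribosomal RNA group as a term (log2 fold change −0.55, adjusted p = 0.0947). In the 4 leukemias with no library of that group, 2M, 73A, 78A and 8633, the log2 fold change was −0.77 (adjusted p = 0.0707), and in the 5 with one it was −0.42 (adjusted p = 0.210).

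*Cdkn2c* rose by 0.30 on the log2 scale (SE 0.076, edgeR adjusted p = 0.0257) and was higher in the DEX column in 8 of 9 leukemias. The highest ratios of DEX to VEH were in 20M, from 18.7 to 29.4 FPKM, and in 73A, from 16.5 to 23.9 FPKM. In 8633 it was at 7.45 (VEH) and 6.98 FPKM (DEX). In the other 6 the ratio was between 1.06 and 1.24. The call was lost without 20M, 2M, 73A or JW81 (log2 fold change 0.24 to 0.30, adjusted p from 0.0562 to 0.0687), with the ribosomal RNA group as a term (0.27, adjusted p = 0.0956), in the 4 leukemias without that group (0.26, 0.201) and in the 5 with it (0.33, 0.143).

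**Figure D3:**
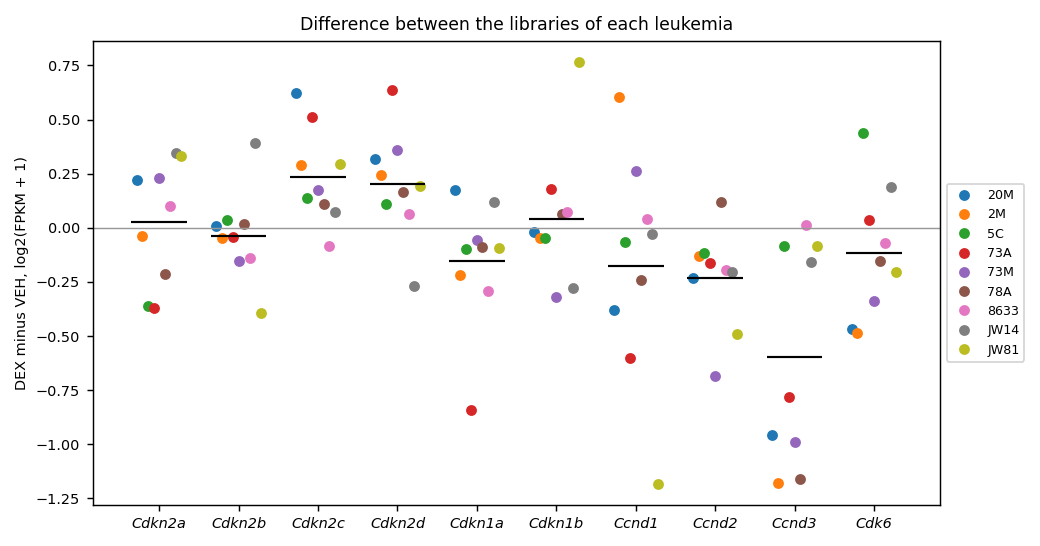
Difference of the DEX from the VEH library on the log2(FPKM + 1) scale for each of 9 leukemias (colors) and 10 genes. Horizontal bars are means. For *Ccnd3* the points fall at −0.78 and below in 5 leukemias and at −0.16 and above in 4.

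Of the genes that did not pass, *Cdkn2d* had a log2 fold change of 0.27 (SE 0.085, adjusted p = 0.0566) and was higher in the DEX column in 8 of 9 leukemias. JW14 was the exception, with 12.2 FPKM (VEH) and 9.96 FPKM (DEX), and without it *Cdkn2d* passed (adjusted p = 0.0146), as it did with DESeq2 (0.0212). *Ccnd2* had −0.44 (SE 0.15, adjusted p = 0.0722) and was lower in 8 of 9. In 7 leukemias this concerned levels of at most 1.69 FPKM, and in 8633 and JW14 the ratios were 0.861 and 0.859. It passed without 78A (0.0252) and with DESeq2 (0.0258). It was −0.26 with the ribosomal RNA group as a term (0.386), −0.086 in the 4 leukemias without that group (0.773) and −0.75 in the 5 with it (0.113). *Ccnd1* had −0.17 (SE 0.18, adjusted p = 0.533), and its leukemias went apart, from 13.0 to 20.3 FPKM in 2M and from 38.5 to 16.4 FPKM in JW81. Without JW81 it was −0.0089, and without 2M −0.31. *Cdk6* had −0.11 (SE 0.10, adjusted p = 0.507), *Cdkn1b* 0.09 (SE 0.11, adjusted p = 0.576) and *Cdkn2a* 0.13 (SE 0.19, adjusted p = 0.659). In the fit with no filter, *Cdkn2b* had −0.12 (SE 0.24, adjusted p = 0.862) and *Cdkn1a* −0.36 (SE 0.19, adjusted p = 0.365).

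The summed D cyclin level was lower in the DEX library in 9 of 9 leukemias, at 54.2 ± 21.6 FPKM in VEH and 35.6 ± 13.3 FPKM in DEX libraries (SD, n = 9). No test of the sum was made. *Ccnd3* gave most of the difference in some leukemias, while in JW81 *Ccnd1* went from 38.5 to 16.4 FPKM and *Ccnd3* from 19.4 to 18.3 FPKM. The level of *Ccnd2* relative to *Ccnd3* was compared as the difference of log2((*Ccnd2* + 1)/(*Ccnd3* + 1)) within leukemias. The ratio was higher in the DEX library by 0.36 ± 0.59 (SD, n = 9), in 5 of 9 leukemias, which did not pass (two-sided exact sign-flip permutation test, p = 0.109, with 0.00391 the smallest that 9 leukemias allow). The values went from −0.41 in JW81 to 1.28 in 78A. With *Ccnd2* at 0.251 (VEH) and 0.361 FPKM (DEX) in 78A, and at most 1.69 FPKM in the 7 leukemias other than 8633 and JW14, the ratio says little of a choice between the cyclins. In 78A it follows *Ccnd3*, and in JW81 it follows *Ccnd2*, which went from 1.69 to 0.912 FPKM.

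The other genes of the pathway were examined in the same fit. Of 26 further G1 genes, 25 were tested, of which none was higher and 5 were lower in the DEX columns, or 5 of 25 against 6.79% of all genes. These were *Myc* (log2 fold change −0.77, adjusted p = 0.0478), the phosphatase gene *Cdc25a*, which activates CDK2 (−0.40, 0.0134), *E2f3* (−0.40, 0.0151), *Skp2*, encoding the ubiquitin ligase subunit that targets p27 (−0.36, 0.0437), and *Cdk2* (−0.25, 0.0147, lower in 9 of 9 leukemias). *Myc* was lower in the DEX library in 6 of 9 leukemias and higher in 3, and *Cdc25a*, *E2f3* and *Skp2* were lower in 8 of 9 each. Results of the alternative fits are not given for these 5 genes. The median log2 fold change of the 25 was −0.14, and 22 were below 0. The pocket protein genes *Rb1* (−0.28, adjusted p = 0.0673), *Rbl1* (−0.14, 0.208) and *Rbl2* (0.03, 0.748) did not pass, nor did *Cdk4* (−0.14, 0.240), *Ccne1* (−0.08, 0.675) or *Ccne2* (−0.36, 0.0952). *Cdkn1c*, the remaining CIP/KIP gene, had a mean of 0.677 FPKM and was not tested. All adjusted p here are from edgeR. Of the 25, 21 differed among leukemias, near the 82.5% of all genes tested, and *Ccne2*, *E2f2*, *E2f5* and *Ezh2* did not pass. *Myc* was at 29.8 FPKM in 20M to 116.7 FPKM in 8633.

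**Figure D4:**
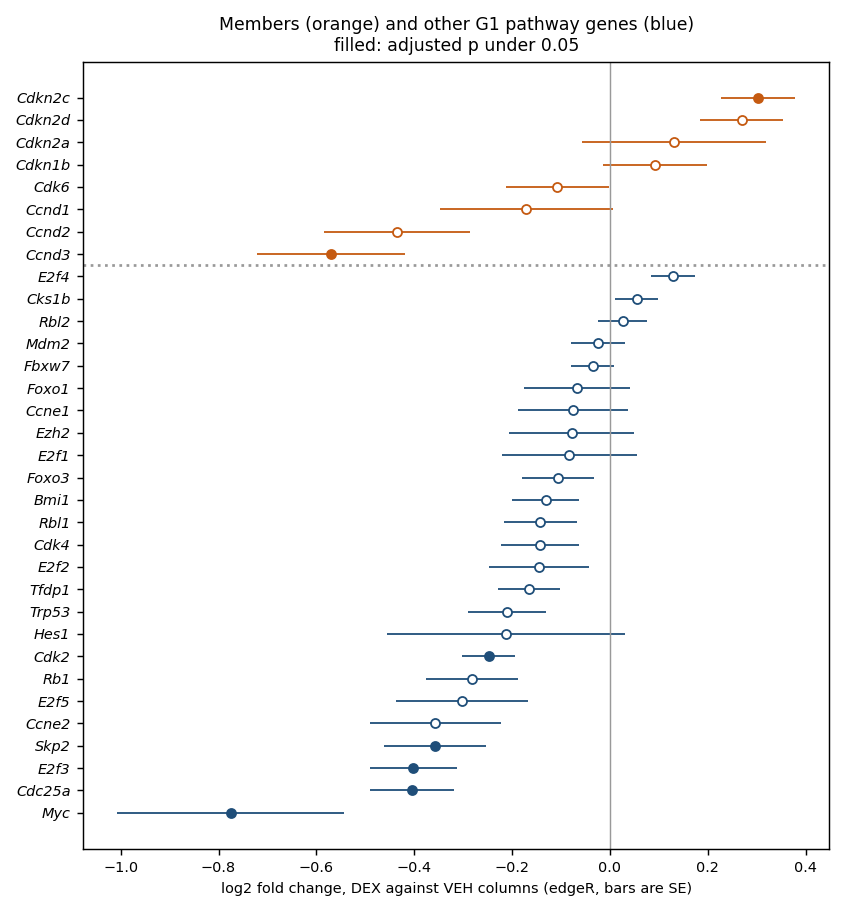
Log2 fold change of the DEX against the VEH columns with its standard error (edgeR, leukemia as a block) for the 8 tested G1 cyclin, CDK6 and inhibitor genes, in orange above the dotted line, and for 25 other G1 genes, in blue. Filled points passed an adjusted p of 0.05, which 2 of the upper and 5 of the lower genes did.

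Markers of other cell types were compared between the same columns, where 6.22% of all genes were called higher and 6.79% lower. The myeloid sum was lower in the DEX library in 7 of 9 leukemias, with medians of 1260 (VEH) and 974 FPKM (DEX), and 1 of 11 genes passed (*Itgam*, lower). All 11 myeloid genes had a log2 fold change below 0, with a median of −0.43. The T lineage sum was lower in 8 of 9, with medians of 746 and 738 FPKM, and 1 of 8 genes passed (*Cd5*, lower). Of 6 erythroid genes and 1 B lineage gene tested, none passed. The erythroid sum was 564 (VEH) and 73.0 FPKM (DEX) in 73M and 148 and 39.7 FPKM in 73A, and the B lineage sum was 28.5 and 5.27 FPKM in 73M, but both sums were higher in the DEX library in 5 of 9 leukemias. No marker of any list was under 0.1 FPKM in all libraries. The proliferation sum was higher in 6 of 9. Of its 5 genes, *Ccnb1* was higher (log2 fold change 0.26, edgeR adjusted p = 0.0311), and *Mki67* had 0.19 (0.124). The part of these values, and of the ribosomal RNA group, in the results for *Ccnd3* and *Cdkn2c* was not tested beyond the fits given above.

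Among the 11331 other genes averaging 1 FPKM or more, those whose level across the 9 leukemias was most like that of each G1 gene were *Sh2d1b2* for *Cdkn2a* (Pearson's r = 0.91), *Parp16* for *Cdkn2b* (0.91), *Atp10a* for *Cdkn2c* (0.98), *Abtb2* for *Cdkn2d* (0.99), *Babam2* for *Cdkn1a* (0.94), *Kat2b* for *Cdkn1b* (0.97), *Pmm2* for *Ccnd1* (0.98), *Stk39* for *Ccnd2* (0.98), *Lingo4* for *Ccnd3* (0.97) and *Tma16* for *Cdk6* (0.97). The next for *Ccnd3* were the histone genes *Hist1h2ab* and *Hist2h4* (both 0.97). For *Cdkn2d* they were the major histocompatibility class I genes *H2-Bl* and *H2-T22* (both 0.99). Each is the highest of 11331 values over 9 points and is given as a description.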

How the data were processed

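RNA was taken from bone marrow of mice carrying transplanted IM-induced T-ALLs, selected for poly(A) and sequenced in paired ends. The authors used Bowtie 2 for alignment to mm10 and RSEM for quantification, whose version and annotation are not given in the sources used here. The deposited table holds expected counts per gene, not normalized for depth or length. Reads that match several genes are divided by RSEM, and use of strand is not stated, so overlapping antisense genes are not told apart. All 20 columns were matched to a leukemia by name. In 3 of them, named DEX, from 2M, 73A and 4638, the last part of the name matches no sample title.

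FPKM were computed with merged exon lengths and symbols of GENCODE release M21 (GRCm38), found for 37693 genes (96.6%). The rest held at most 0.598% of a library. In edgeR 4.0.16 (R 4.3.3), rounded counts of genes averaging 1 FPKM or more were fitted by quasi-likelihood with TMM and tested at a Benjamini-Hochberg adjusted p of 0.05, with leukemia as a block, since both libraries come from that leukemia. Differences among leukemias were an F test with the column kind as a term. The ratio test took 512 sign patterns. Levels are means of both libraries, and 4638 was left out because the study counts 9 leukemias with RNA sequencing and lists none under that name. A figure of the study lists one with the same digits in another order, and whether that is the same leukemia is not known. One item of the design is not reported here. Alternatives were DESeq2 1.42.0, other size factors, filters, pseudocounts and scalings, each leukemia left out, 4638 added, no block, and the ribosomal RNA group (libraries above 1 count per M counts). The fit of only the leukemias with such a library was added after seeing the data. On simulated counts for 11339 genes, the DEX comparison recovered 95% of 2-fold and 99% of 4-fold changes with 5.37% false calls, and the comparison among leukemias 64% and 95% with 3.64%. The simulated DEX changes were alike in all leukemias. These rates therefore do not describe uneven changes such as that of *Ccnd3*, or changes under 2-fold such as that of *Cdkn2c*.

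The genes and lists were chosen with earlier results of these data known. The lists were all 10 genes, the other G1 genes, neighbors within 1 Mb, markers, and the 3 genes most like each by r. All 10 genes are named in the text, and of the other lists not every gene is. A floor of 3 counts covers counting error only. Python 3.11.15, numpy 2.4.6, pandas 2.3.3 and scipy 1.17.1 were used.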

Additional observations from a re-analysis of the deposited data

Results flagged for a closer look

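The level of each of the 10 genes over the 9 leukemias, and its difference between DEX and VEH libraries, were searched for 1 leukemia far from the rest (gap over range above Dixon's critical value for 9). Of these 20 sets, 3 held such a value. Chance gives about 1 in 20 for independent sets chosen without knowledge of the data, which these were not, since they share libraries and the genes were chosen with earlier results known. *Cdkn2a* in 8633 was highest of the 9, at 3.79 on the log2(FPKM + 1) scale. 4638, which was not in this search, was higher, at 4.08. *Cdkn1a* in 73A had the lowest difference, −0.84, from 2.66 FPKM (VEH) to 1.04 FPKM (DEX) on 119 and 86 counts. The myeloid sum of 73A also differed, at 4917 and 2836 FPKM. *Cdkn1b* in JW81 had the highest difference, 0.77, from 22.6 to 39.2 FPKM, and without JW81 its fitted log2 fold change went from 0.09 to −0.01. The part of the myeloid sum in the *Cdkn1a* value was not tested.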

How the results depend on the processing

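The 5 genes counted in the test among leukemias passed it with each leukemia left out (8926 to 9501 genes in all), with DESeq2 size factors (9362), with 4638 (9885) with no replicate block (8483) and with no filter (13213). *Cdkn2a*, *Ccnd1* and *Ccnd2*, which entered the test through the leukemias in which they are high, are again not counted. The main fit gave 9351 genes, or 82.5% of those tested. The comparison of DEX with VEH columns was less stable. Against 1475 genes and 2 G1 genes, the fit with no replicate block gave 8 and 0 (*Ccnd3* log2 fold change −0.64, edgeR adjusted p = 0.890), the ribosomal RNA group as a term 465 and 0, the 4 leukemias without that group 475 and 0, and the 5 with it 15 and 0. DESeq2 gave 2169 and 4. Leaving out each leukemia gave 676 to 2041 genes and 0 to 3 G1 genes, with 0 G1 genes without 20M, 2M or 73A. *Ccnd3* passed in 4 of these 9 fits and *Cdkn2c* in 5, and neither changed sign in any fit. The *Ccnd2* to *Ccnd3* ratio was 0.25 to 0.46 with each leukemia left out and 0.18 with a pseudocount of 0.1 FPKM, and did not pass under any alternative run. Values that changed sign, none of them passing, were *Cdkn2a* at −0.11 with the ribosomal RNA group as a term and −0.15 in the 4 leukemias without it, *Cdkn1b* at −0.012 without JW81 (up to 0.14 without JW14), and *Cdk6* at 0.050 with no replicate block. Over all alternatives, 17 fitted fold changes of the 8 genes lost a call and 5 gained one, and the rest, apart from those that changed sign, kept their direction and side of the threshold. *Cdkn2b* and *Cdkn1a* are limited by depth, with 3 to 253 and 12 to 445 counts in a library. The cause of these changes was not tested, though fits with fewer leukemias also hold fewer samples.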

Other observations

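In 4638, which entered the tests only as an alternative, *Cdkn2a* was at 14.2 FPKM (VEH) and 17.8 FPKM (DEX) on 334 and 318 counts, above the libraries of 8633. *Cdkn2b* was at 3.19 and 1.89 FPKM and *Cdkn1a* at 3.60 and 5.98 FPKM, each above all 18 libraries of the 9 leukemias. *Ccnd3* made up 88.4% and 86.1% of its D cyclin FPKM, with 67.3 FPKM (VEH) and 50.5 FPKM (DEX). *Ccnd2* was at 5.38 and 5.25 FPKM and *Ccnd1* at 3.48 and 2.91 FPKM, between the high and low leukemias for both genes. *Cdkn2d* was lower in its DEX library, at 31.5 and 23.8 FPKM.

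*Mtap*, next to *Cdkn2a*, was lower in the DEX columns (log2 fold change −0.38, edgeR adjusted p = 0.0362, lower in 8 of 9 leukemias). Of the 5 neighbors of the locus it alone passed, against 13.0% of all genes tested.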
